A study of Homo sapiens with 12 samples.

Results

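The genes described here were selected on their own measured values, as those that reached their highest level when MOLM-13 cells received decitabine and all-trans retinoic acid together. MOLM-13 is an established human acute myeloid leukemia (AML) cell line with an MLL-AF9 fusion. The rule took rows summed per gene symbol, of any biotype, with a mean of the DAC+ATRA libraries of at least 20 normalized read counts and at least 2.5 times the mean of each other group. It also required the lowest DAC+ATRA library to lie above the highest of the other 9 libraries, and it left out PTGES. Of 46639 gene symbols, 36 met the rule. A total of 10177 symbols passed the limit on the mean and 701 the requirement on single libraries.

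RNA was measured after ribosomal RNA depletion in 4 groups of 3 libraries each. The untreated cells received neither drug, and a solvent control was not analysed here. The DAC group received 100 nM decitabine in daily pulses, the ATRA group 1 µM all-trans retinoic acid, and the DAC+ATRA group both. All cells were grown with GM-CSF and serum and had their medium changed daily. Serum is also named in the study's methods, which mention neither GM-CSF nor a daily change of medium. The study's methods place ATRA with the last of the DAC pulses, so that exposure to ATRA was shorter than exposure to DAC. The labels give 72 h for the treated and 96 h for the untreated libraries, and the design text calls the replicates technical, so p-values measure only the spread between libraries of 1 line, and any effect of the labelled time cannot be told apart from treatment in comparisons with untreated cells. Library totals ran from 8951104 to 11944630 reads in untreated cells, 4671214 to 6954604 in DAC, 8363702 to 10685348 in ATRA and 5607158 to 7162775 in DAC+ATRA. All 10 markers of a myeloid AML line were detected, led by LYZ, whereas CD2, MS4A1, ALAS2, COL1A2, COL3A1, DCN and CDH1, markers of other lineages, were at 0 in every library, and other markers of those lineages were not. The 10 myeloid markers summed to 52852 to 64992 normalized read counts in untreated cells and 168820 to 213280 in DAC. Their sums were 16830 to 22703 in ATRA and 60103 to 63155 in DAC+ATRA. LYZ had means of 41628, 153290, 6819 and 40819 in the same order of groups. The 4 fibroblast markers summed to 4.87 to 10.7 normalized read counts in untreated cells, 17.8 to 23.9 in DAC, 64.5 to 86.3 in ATRA and 39.2 to 58.2 in DAC+ATRA, led by COL1A1, and the 4 B cell markers to 3.14 to 5.68, 8.71 to 26.7, 13.4 to 21.6 and 27.996 to 40.8, led by CD79A. In the same order of groups, the T cell markers, led by CD3D, summed to 11.9 to 25.2, 20.4 to 40.8, 4.18 to 13.4 and 22.5 to 27.996, and the mast cell or basophil markers, led by HDC, to 9.41 to 17.9, 10.9 to 31.4, 0 to 2.51 and 1.02 to 4.50. The epithelial markers, led by KRT8, summed to 48.7 to 66.5, 59.9 to 72.5, 51.963 to 64.7 and 32.6 to 67.4. The endothelial markers, led by PECAM1, which myeloid cells also express, summed to 3621 to 4589, 5510 to 6162, 1399.5 to 1547 and 1782 to 2130. The erythroid markers were at 0 apart from a sum of up to 2.04 in DAC+ATRA. The part of these other cell type markers in the results was not tested.

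Decitabine is a deoxycytidine analog that is built into DNA and traps DNA methyltransferases, so that methylation is lost as cells divide. All-trans retinoic acid binds retinoic acid receptors, which sit on DNA as heterodimers with RXR, and drives myeloid cells toward differentiation. In myeloid leukemia cells the former is known for switching on genes with methylated promoters, and the latter for inducing granulocyte and monocyte genes.

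The members were scattered by function and by position. There were 30 protein-coding genes, 4 long non-coding RNAs, 1 microRNA gene and 1 transcript of the class awaiting experimental proof, on 16 chromosomes. The only members within 100 kb of each other were AC004263.1 and AC004263.2. A total of 20 members (55.6%, beside 38.1% of genes tested) had a single transcript row, and 30 had at least 90% of their DAC+ATRA level on 1 row. Their DAC+ATRA means ran from 20.6 (MARCKS) to 2866 (MMP9) normalized read counts with a median of 51.9, and 14 exceeded 100. The ratio of the DAC+ATRA mean to the next-highest group ran from 2.51 to 149 with a median of 3.30. It was at least 4 for 13 members and at least 10 for CCN4, INSYN2B, LINGO4, PTPRG, AC004263.1 and ACP5. The next-highest group was ATRA for 21 members, DAC for 14 and untreated for 1 (INSYN2B). Within DAC+ATRA the coefficient of variation ran from 3.51% (VAT1L) to 55.3% (MPZL2), with a median of 17.9%.

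**Figure D1:**
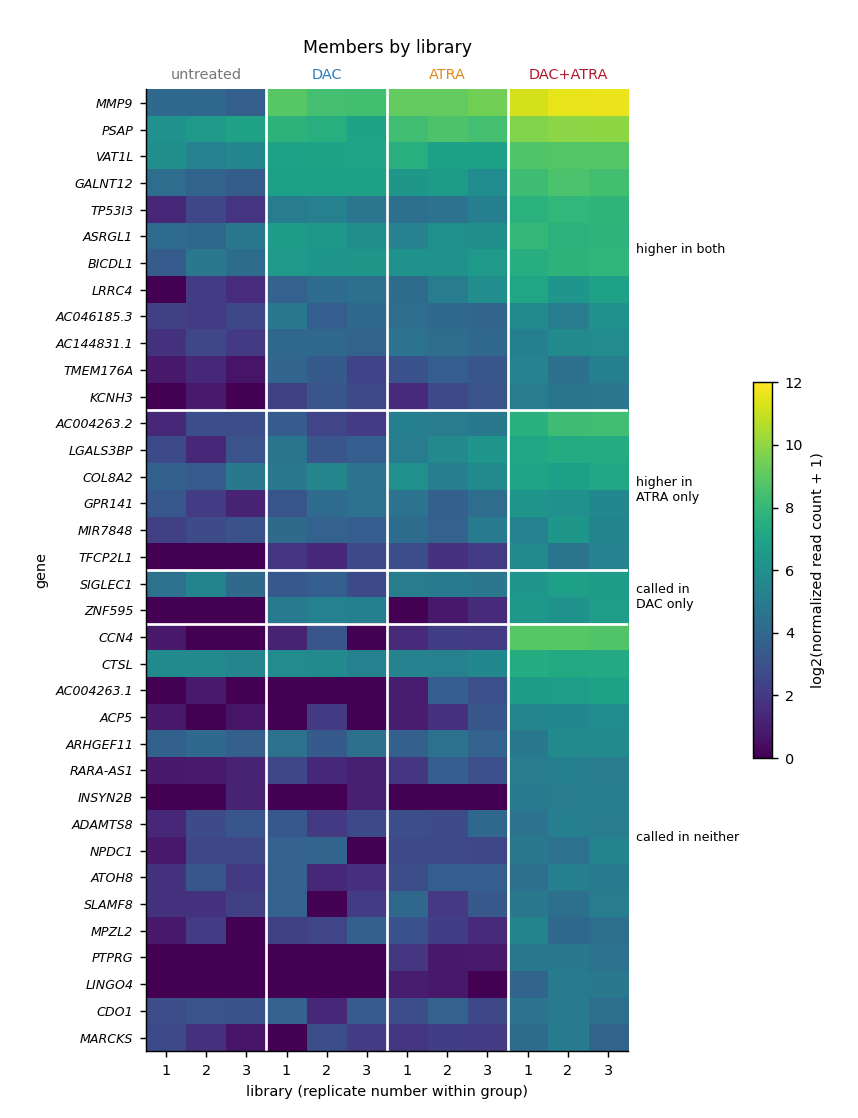
Each row is 1 of the 36 members and each column 1 of the 12 libraries, with color giving log2(normalized read count + 1). Rows are grouped by whether limma called the gene in DAC or ATRA against untreated, and the last 3 columns are the brightest in every row, as the rule required.

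For orientation, the same rule with another group on top found 36 genes highest in untreated cells, 82 in DAC and 113 in ATRA, and the rule turned over found 24 genes lowest in DAC+ATRA. The limits cut through a continuous range. Just inside the ratio limit were AC144831.1 (2.51), COL8A2 (2.53) and ARHGEF11 (2.53), and just outside were IGSF6 (2.45), AL713998.1 (2.45) and VSTM2L (2.43). Just inside the limit on the DAC+ATRA mean were MARCKS (20.6), CDO1 (23.7) and LINGO4 (24.0), and just outside were MBD3L3 (18.5), RTN4RL1 (18.4) and TMEM176B (18.2).

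There were 4 members with no read in any untreated library, namely ZNF595, TFCP2L1, PTPRG and LINGO4. Their promoter windows, from 250 bases before to 50 bases after the RefSeq start on GRCh38.p14, are shown because they differ widely in CpG, the dinucleotide at which DNA methylation is found. CpG is written in capitals and each window reads 5′ to 3′ along its gene. TFCP2L1 (chr2:121285153-121285452, minus strand) held 43 CpG and PTPRG (chr3:61561321-61561620, plus strand) 34. ZNF595 (chr4:53071-53370, plus strand) held 12 and LINGO4 (chr1:151805370-151805669, minus strand) 3.
TFCP2L1: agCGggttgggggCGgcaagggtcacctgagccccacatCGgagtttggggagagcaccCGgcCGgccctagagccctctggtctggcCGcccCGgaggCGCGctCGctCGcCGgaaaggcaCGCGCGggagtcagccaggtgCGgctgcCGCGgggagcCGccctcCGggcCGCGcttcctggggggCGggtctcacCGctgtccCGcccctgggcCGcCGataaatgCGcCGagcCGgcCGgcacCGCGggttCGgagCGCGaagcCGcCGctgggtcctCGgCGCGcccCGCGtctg
PTPRG: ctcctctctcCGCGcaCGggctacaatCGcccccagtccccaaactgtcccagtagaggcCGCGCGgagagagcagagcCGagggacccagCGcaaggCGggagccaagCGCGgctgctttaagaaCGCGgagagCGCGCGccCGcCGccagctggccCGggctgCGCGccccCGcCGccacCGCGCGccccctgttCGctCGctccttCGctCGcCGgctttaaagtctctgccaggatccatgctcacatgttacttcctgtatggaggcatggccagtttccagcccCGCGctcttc
ZNF595: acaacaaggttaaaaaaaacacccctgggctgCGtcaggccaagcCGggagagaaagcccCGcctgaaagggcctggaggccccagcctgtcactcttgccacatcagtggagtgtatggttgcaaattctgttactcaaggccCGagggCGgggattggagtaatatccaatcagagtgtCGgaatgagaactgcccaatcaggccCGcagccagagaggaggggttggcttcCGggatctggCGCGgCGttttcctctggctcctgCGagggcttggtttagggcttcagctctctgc
LINGO4: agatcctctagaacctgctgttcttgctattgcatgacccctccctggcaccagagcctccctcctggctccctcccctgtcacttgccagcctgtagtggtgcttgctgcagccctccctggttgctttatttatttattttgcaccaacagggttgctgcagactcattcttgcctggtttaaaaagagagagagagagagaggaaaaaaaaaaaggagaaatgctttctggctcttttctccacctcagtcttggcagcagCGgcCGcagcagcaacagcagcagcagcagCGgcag

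A promoter window was matched by symbol for 22 of the 36 members. Windows follow the RefSeq start, which was not always the start of the transcript row with most of the DAC+ATRA level. The row start minus the RefSeq start was 2085 bases for NPDC1, -366 for TMEM176A, -132 for ACP5, 106 for GPR141 and -17 for ZNF595. For the other windows the starts coincided. CpG counts in the 22 windows ran from 1 (GPR141) to 47 (LRRC4), with a median of 26.5, beside 26 for 9351 tested genes with a window and 14 for all 27305 windows. At least 10 CpG were found in 16 of the 22 (72.7%), in 87.4% of the tested genes and in 56.0% of all windows. Retinoic acid response elements were searched as a pair of half-sites, where each could be AGGTCA, the related motif GGGTCA, the variant AGTTCA, or the further variant GGTTCA, in 1 orientation with 1, 2 or 5 bases between them, on both strands. No member window held such a pair, and neither did most others (0.267% of tested genes and 0.256% of all windows held one). A single AGGTCA was in 0 of the 22 windows, 9.96% of tested genes and 13.9% of all windows. TATAAA was in the RARA-AS1 window (6.11% of tested genes and 11.95% of all windows) and TGACTCA, the AP-1 motif, in the SLAMF8 window (2.98% and 4.92%). No window was matched for MMP9, PSAP, CCN4, AC004263.2, BICDL1, AC004263.1, SIGLEC1, MIR7848, AC046185.3, AC144831.1, INSYN2B, ADAMTS8, KCNH3 and MPZL2.

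Levels below are normalized read counts in each library, in the order of replicates 1 to 3. Reads that fit several transcript rows were not counted, so levels leave out such reads and are not comparable between genes, and where genes overlap a level may hold reads of the partner. For genes with several rows, a difference between groups may therefore hold a change in transcript use, which was not tested. PSAP had 95.2% of its DAC+ATRA level on a row that was not matched in GENCODE release 44. In bulk RNA, more cells expressing a gene and more RNA per cell cannot be told apart. Differences with DAC+ATRA are given as descriptions without a test, because those columns chose the genes. The grouping by known role was made with the values in view. Gene coordinates are those of GENCODE release 44 on GRCh38.

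The first group comprises genes of the extracellular matrix and secreted proteins. MMP9 (chr20:46008908-46016561, plus strand), the gelatinase B released by neutrophils and macrophages, took the most reads. It measured 16.3, 15.4 and 11.3 in untreated cells, 466, 342 and 331 in DAC, 550, 562 and 699 in ATRA, and 2371, 2971 and 3257 in DAC+ATRA. MMP9 was thus already far above untreated with each drug, and the combination mean of 2866 ± 452 (SD, n = 3) was 4.75 times the ATRA mean. CCN4, a matricellular protein formerly named WISP1, ran otherwise. It measured 0.778, 0 and 0 in untreated cells, 1.27, 7.84 and 0 in DAC, 1.79, 3.72 and 3.34 in ATRA, and 465, 466 and 423 in DAC+ATRA. CCN4 was near 0 in all 9 other libraries and varied by 5.46% within DAC+ATRA. The DAC+ATRA mean was 149 times the DAC mean, and 1740 times an untreated mean that rests on 1 read (95% counting interval 331 to 73022). Its relatives did not share this pattern, as CCN1 and CCN3 had DAC+ATRA means of 1.13 and 1.22 and CCN2 had group means of 9.58, 0.523, 65.6 and 2.11 from untreated to DAC+ATRA.

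LGALS3BP, a secreted glycoprotein that binds galectin-3 and is inducible by interferon, measured 5.44, 1.62 and 7.53 in untreated cells, 24.2, 7.84 and 10.9 in DAC, 32.3, 49.1 and 74.4 in ATRA, and 144, 165 and 164 in DAC+ATRA. The galectin it binds moved otherwise, with LGALS3 means of 395, 821, 108 and 120 in the same order of groups. COL8A2, a chain of collagen VIII, measured 12.4, 9.74 and 27.6 in untreated cells, 26.7, 42.3 and 21.8 in DAC, 63.6, 34.2 and 52.7 in ATRA, and 127, 107 and 146 in DAC+ATRA. COL8A2 lay just inside the ratio limit. ADAMTS8, a secreted metalloprotease, had group means of 5.13, 5.83, 9.09 and 30.0. TIMP1, the tissue inhibitor that binds MMP9, is no member and had means of 233, 281, 477 and 414.

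The second group comprises lysosomal and macrophage genes. PSAP (chr10:71816298-71851251, minus strand), the precursor of the saposins that activate lysosomal sphingolipid breakdown, measured 66.9, 86.1 and 118 in untreated cells, 215, 185 and 121 in DAC, 320, 406 and 344 in ATRA, and 834, 975 and 992 in DAC+ATRA. The order of its group means was untreated, DAC, ATRA, DAC+ATRA. CTSL (chr9:87724051-87731469, plus strand), the lysosomal cysteine protease cathepsin L, measured 51.3, 50.3 and 42.7 in untreated cells, 54.7, 51.8 and 38.1 in DAC, 39.4, 36.5 and 47.7 in ATRA, and 172, 154 and 162 in DAC+ATRA. The untreated, DAC and ATRA libraries overlapped and CTSL stood at 3.38 times their highest group mean in the combination. CTSB, cathepsin B, had means of 458, 632, 1707 and 1232 and was highest in ATRA. ACP5 (chr19:11574653-11579993, minus strand), the tartrate-resistant acid phosphatase of osteoclasts and tissue macrophages, measured 0.778, 0 and 0.627 in untreated cells, 0, 3.14 and 0 in DAC, 0.896, 2.23 and 8.36 in ATRA, and 43.4, 47.3 and 56.2 in DAC+ATRA. Its DAC+ATRA mean was 12.8 times the ATRA mean.

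SIGLEC1 (chr20:3686970-3712600, minus strand), the macrophage sialic acid receptor CD169, measured 21.8, 41.4 and 16.9 in untreated cells, 8.90, 11.0 and 5.44 in DAC, 31.4, 30.5 and 25.9 in ATRA, and 77.0, 108 and 99.0 in DAC+ATRA. It was the only member whose DAC libraries all lay below the untreated ones and was also the only member called lower in DAC. SLAMF8, a SLAM family receptor of myeloid cells, had group means of 2.84, 5.33, 9.13 and 26.5, and GPR141, an orphan G protein-coupled receptor, 4.35, 15.6, 17.6 and 62.1. TMEM176A, a membrane protein found in myeloid cells, had means of 1.01, 9.25, 8.90 and 31.4. TMEM176B, which overlaps it on the opposite strand, had 0.518, 4.81, 3.68 and 18.2 and missed the limit on the mean.

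**Figure D2:**
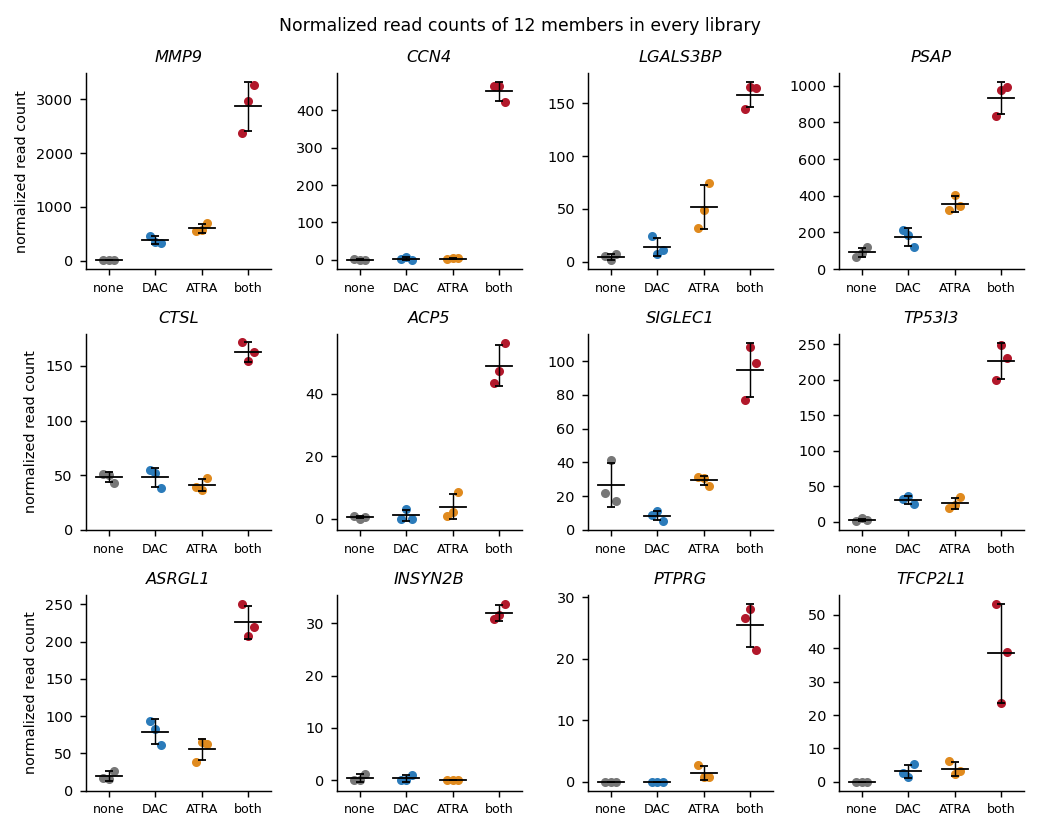
Points are normalized read counts of single libraries for 12 members in untreated (none), DAC, ATRA and DAC+ATRA (both) cells. Horizontal lines are means and bars ± SD of 3 libraries. MMP9, PSAP, TP53I3 and ASRGL1 were called higher with each single drug, whereas CCN4, CTSL, ACP5, INSYN2B and PTPRG were called with neither.

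Adhesion, synaptic and channel genes formed the third group. INSYN2B (chr5:169861303-169980495, minus strand), of the inhibitory synaptic factor family, had 2 reads in the untreated group (0, 0 and 1.25), 1 read in DAC (0, 0 and 1.09), none in ATRA, and 30.8, 31.5 and 33.7 in DAC+ATRA. Its DAC+ATRA mean was at least 39.0-fold higher than the ATRA group, taking 3 reads over the group as the floor. PTPRG, a receptor tyrosine phosphatase, had no read in untreated or DAC libraries, 2.69, 0.744 and 0.836 in ATRA, and 26.6, 28.1 and 21.4 in DAC+ATRA. This was at least 34.8-fold higher than untreated, at least 19.8-fold higher than DAC and 17.8 times ATRA. LINGO4, a leucine-rich repeat and immunoglobulin domain protein, had no read in untreated or DAC libraries, 0.896, 0.744 and 0 in ATRA, and 14, 30.4 and 27.6 in DAC+ATRA. Its fold over ATRA was 43.9 (95% counting interval 12.04 to 382, 2 reads). These genes were all close to the detection limit outside the combination, so their single-drug changes were not measurable at this depth.

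KCNH3, a voltage-gated potassium channel, measured 0, 0.812 and 0 in untreated cells, 3.82, 7.84 and 5.44 in DAC, 1.79, 5.21 and 7.52 in ATRA, and 32.2, 24.8 and 25.5 in DAC+ATRA. LRRC4, a synaptic adhesion protein that binds netrin-G2, had group means of 1.71, 16.5, 35.9 and 109. Further members of this kind were MPZL2, an adhesion protein of the myelin zero-like family (1.34, 6.83, 4.19 and 25.7), and NPDC1, a neural proliferation control protein (3.56, 8.95, 5.20 and 29.3). MPZL2 was the most variable member, at 42.0, 15.8 and 19.4 in the DAC+ATRA libraries.

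Enzymes and intracellular proteins made up the fourth group. TP53I3 (chr2:24077433-24085861, minus strand), a quinone oxidoreductase homolog, measured 1.56, 4.87 and 2.51 in untreated cells, 31.8, 36.1 and 25.0 in DAC, 19.7, 23.1 and 35.1 in ATRA, and 199, 249 and 231 in DAC+ATRA. The DAC and ATRA libraries of TP53I3 overlapped and the combination mean was 7.30 times the DAC mean. ASRGL1, an asparaginase-like enzyme, measured 17.1, 15.4 and 27.0 in untreated cells, 94.1, 83.1 and 61.0 in DAC, 38.5, 64.7 and 62.7 in ATRA, and 251, 207 and 220 in DAC+ATRA. GALNT12, which starts mucin-type O-glycosylation, measured 18.7, 13.8 and 10.7 in untreated cells, 107, 108 and 112 in DAC, 80.6, 93.0 and 56.0 in ATRA, and 307, 382 and 334 in DAC+ATRA. Every DAC library of GALNT12 lay above every ATRA library. CDO1, cysteine dioxygenase, measured 6.22, 7.31 and 6.90 in untreated cells, 12.7, 1.57 and 9.80 in DAC, 6.27, 12.7 and 5.02 in ATRA, and 22.4, 29.3 and 19.4 in DAC+ATRA.

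VAT1L, a homolog of the vesicle amine transport protein VAT1, measured 62.2, 38.2 and 45.8 in untreated cells, 116, 125 and 126 in DAC, 185, 112 and 107 in ATRA, and 433, 440 and 463 in DAC+ATRA. BICDL1, an adaptor of the dynein motor, measured 10.1, 26.8 and 18.2 in untreated cells, 87.8, 78.4 and 81.6 in DAC, 69.0, 68.5 and 85.3 in ATRA, and 175, 217 and 237 in DAC+ATRA. Both genes reached about the same level with either single drug. ARHGEF11, an exchange factor for RhoA, measured 12.4, 16.2 and 11.3 in untreated cells, 21.6, 9.41 and 20.7 in DAC, 11.6, 21.6 and 12.5 in ATRA, and 28, 51.8 and 51.1 in DAC+ATRA. MARCKS, a membrane-bound substrate of protein kinase C, measured 5.44, 2.44 and 0.627 in untreated cells, 0, 6.27 and 3.27 in DAC, 2.69, 3.72 and 3.34 in ATRA, and 18.2, 30.4 and 13.3 in DAC+ATRA.

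The transcription factors among the members were TFCP2L1, ATOH8 and ZNF595. TFCP2L1, a grainyhead-related factor known from pluripotent cells, had no read in untreated cells and measured 2.54, 1.57 and 5.44 in DAC, 6.27, 2.23 and 3.34 in ATRA, and 53.2, 23.6 and 38.8 in DAC+ATRA. The DAC+ATRA level was at least 52.8-fold higher than untreated. ATOH8, a basic helix-loop-helix factor, had group means of 4.53, 5.49, 9.43 and 28.4. ZNF595, a C2H2 zinc finger protein, had no read in untreated cells, 29.3, 37.6 and 34.8 in DAC, 0, 0.744 and 1.67 in ATRA, and 84.0, 70.9 and 103 in DAC+ATRA. It was thus on in every library that received decitabine and at 3 reads in all in ATRA alone, and its neighbor ZNF718 had means of 82.6, 83.4, 104 and 80.2.

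Apart from AC144831.1, the non-coding members overlapped other genes, and their reads have to be read beside those of the partner. Libraries were strand-specific, but whether the counting used strand is not given in the sources used here. AC004263.2 (chr12:120218070-120222668) and AC004263.1 (chr12:120224744-120225421) lie 2076 bases apart on the plus strand, opposite to and within PXN, which encodes the focal adhesion protein paxillin. AC004263.2 measured 1.56, 6.49 and 6.27 in untreated cells, 10.2, 4.70 and 3.27 in DAC, 34.9, 32.0 and 27.6 in ATRA, and 193, 305 and 322 in DAC+ATRA. AC004263.1 measured 0, 0.812 and 0 in untreated cells, 0 throughout DAC, 0.896, 11.2 and 6.69 in ATRA, and 98.0, 104 and 119 in DAC+ATRA. PXN had means of 4.28, 10.03, 52.3 and 89.1. From ATRA to DAC+ATRA the means of the non-coding pair differed by 8.67 and 17.1 times, beside PXN means of 52.3 and 89.1.

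RARA-AS1 (chr17:40340867-40343136, minus strand) lies within RARA, the gene of the retinoic acid receptor alpha, on the opposite strand. RARA-AS1 measured 0.778, 0.812 and 1.25 in untreated cells, 5.09, 1.57 and 1.09 in DAC, 2.69, 11.2 and 6.69 in ATRA, and 32.2, 34.9 and 31.7 in DAC+ATRA. RARA summed over its rows had means of 27.1, 38.0, 41.2 and 62.1 and was no member. A single transcript row of RARA, ENST00000394081.7, met the rule on its own when rows were not summed. It starts inside RARA-AS1, 773 bases from the start of the antisense RNA, and measured 0.778, 1.62 and 0.627 in untreated cells, 2.54, 6.27 and 2.18 in DAC, 3.58, 5.95 and 5.02 in ATRA, and 15.4, 32.6 and 15.3 in DAC+ATRA. The leading row of RARA, ENST00000394089.6, which starts upstream, had means of 24.6, 30.0, 34.1 and 37.5. Both rows were singled out after their values were seen.

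MIR7848, a microRNA gene whose short precursor lies inside SLA on the same strand, had group means of 5.49, 13.3, 20.2 and 54.0, beside 1154, 2048, 4249 and 6909 for SLA, which encodes the adaptor SLAP. Reads of both genes cannot be told apart there, and total RNA libraries of this kind are not made to capture mature microRNA. AC046185.3 (means 4.05, 18.1, 16.2 and 49.8) lies wholly within STRADA, which encodes a pseudokinase partner of LKB1, on the opposite strand (6.89, 6.65, 17.2 and 14.1). It shares 326 of its 1824 bases with LIMD2, also on the opposite strand (90.5, 150, 242 and 331). AC144831.1, a long non-coding RNA, measured 2.33, 4.87 and 3.14 in untreated cells, 15.3, 15.7 and 13.1 in DAC, 22.4, 18.6 and 15.9 in ATRA, and 35.0, 52.9 and 55.1 in DAC+ATRA. Among the protein-coding members, INSYN2B lies opposite to DOCK2 and LRRC4 opposite to SND1. These partners had far higher read counts and were lower in DAC+ATRA than in untreated cells (limma adjusted p of 0.000582 and 0.00118), with means of 6330, 6140, 5531 and 4630 for DOCK2 and 6209, 6163, 4310 and 4636 for SND1. Other protein-coding members also overlap genes on the opposite strand. Among these partners are ZNF627 for ACP5 (means 122, 82.1, 201 and 158) and MCRS1 for KCNH3 (88.2, 85.6, 115 and 113). Further ones are FAM228B for TP53I3 (22.6, 18.0, 29.7 and 16.3) and SLC12A5-AS1 for MMP9 (8.59, 8.37, 26.6 and 21.4). On the same strand, NPDC1 overlaps AL807752.6, whose means of 55.6, 41.6, 9.66 and 14.7 ran otherwise than those of NPDC1.

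**Figure D3:**
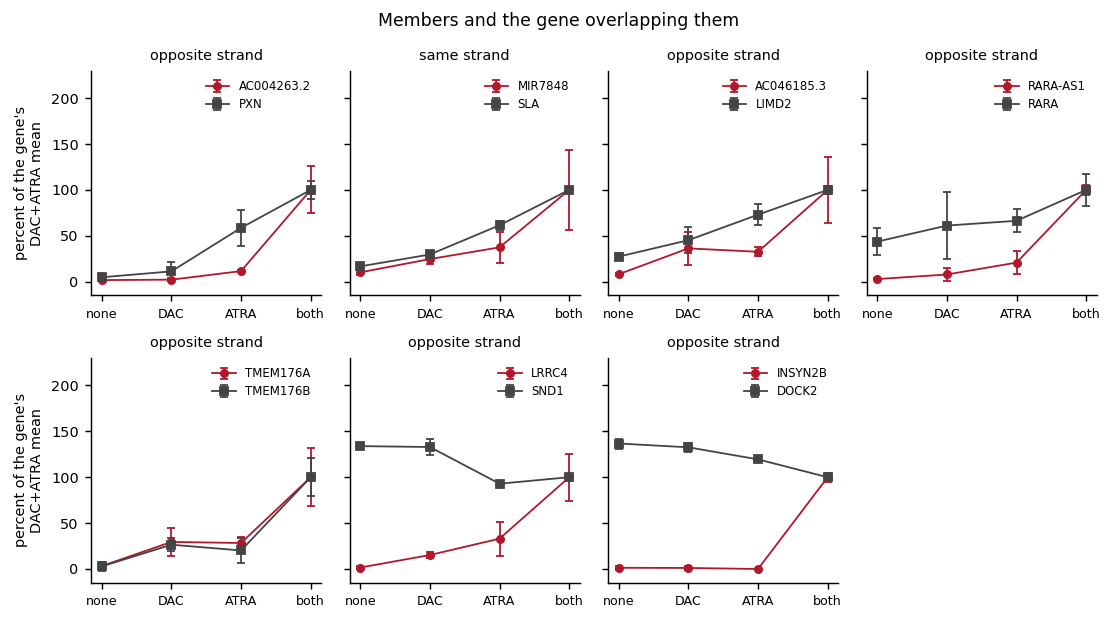
Means of 7 members (red circles) and of the gene overlapping each of them (gray squares), each as a percent of its own DAC+ATRA mean, with bars ± SD of 3 libraries. TMEM176A and TMEM176B ran together, AC004263.2 stayed lower than PXN in ATRA relative to the combination, and DOCK2 and SND1 were highest in untreated cells.

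To ask how the members responded to each drug alone, DAC and ATRA were compared with untreated cells by limma on log2(normalized read count + 1), fitted over all 14290 genes with a mean of at least 5 over the 12 libraries. The differences hold no DAC+ATRA library, but those libraries enter the spread that all groups share. The p-values are thus not independent of the columns that chose the genes. Calls that changed when only the compared groups were fitted are given below. The rule also caps a member's level in untreated cells and in the single drugs. Each member also passes the filter through its DAC+ATRA level. In DAC, 13 of 36 members were called higher at an adjusted p under 0.01, beside 3.41% of all genes tested, and 1 was called lower, beside 2.87%. In ATRA, 18 were called higher, beside 10.4%, and 0 lower, beside 11.9%. The count of 0 was the same with DESeq2 and edgeR, and 0 members were lower at an unadjusted p under 0.05. However, the rule caps untreated levels, and 10 members had an untreated mean under 1. Lower calls were thus limited in advance, and nothing is concluded from the count of 0. There were 12 members called higher with both drugs, beside 1.06% of all genes tested, and 16 called in neither, beside 74.8%. The median log2 difference of the members was 1.04 in DAC and 1.64 in ATRA, beside -0.01 and -0.03 over all genes tested, and 30 members had means above untreated in both single-drug groups, beside 28.7% of all genes tested.

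The 12 members called higher with both drugs, each given alone, were MMP9, PSAP, VAT1L, GALNT12, TP53I3, ASRGL1, BICDL1, LRRC4, AC046185.3, AC144831.1, TMEM176A and KCNH3. The log2 difference of MMP9 was 4.63 ± 0.17 (SE) in DAC and 5.31 ± 0.17 in ATRA, with limma adjusted p of 9.50e-13 and 6.48e-15. TP53I3 rose by 3.08 ± 0.33 in DAC (limma adjusted p = 2.27e-06) and 2.81 ± 0.33 in ATRA (1.16e-06). GALNT12 rose by 2.87 ± 0.22 and 2.34 ± 0.22 and LRRC4 by 2.91 ± 0.48 and 3.85 ± 0.48. When only DAC and untreated libraries were fitted, the DAC calls of LRRC4 (adjusted p = 0.0188), AC144831.1 (0.0228), PSAP (0.0770), AC046185.3 (0.0377), TMEM176A (0.0307) and KCNH3 (0.0189) were lost, and with only ATRA and untreated libraries the ATRA call of KCNH3 (0.0196). KCNH3 was also lost with a pseudocount of 5 (0.0325 in DAC and 0.0363 in ATRA) and without the filter on low values (0.0181 and 0.0173). So were the DAC calls of TMEM176A (0.0155 with a pseudocount of 5 and 0.0140 without the filter) and of AC046185.3 (0.0105, without the filter only). Other calls depended on single libraries. In DAC, PSAP (0.93 ± 0.20) was lost without untreated replicate 1 or 2 or DAC replicate 1 or 2 (adjusted p 0.0213 to 0.0342) and AC046185.3 without untreated 1 or 2 or DAC 1 (0.0143 to 0.0263). TMEM176A was lost in DAC without untreated 1 or 3 or DAC 1 or 2 (0.0152 to 0.0242). KCNH3 was lost in DAC without untreated 1 or 3, DAC 2 or 3, or DAC+ATRA 2 or 3 (0.0103 to 0.0302), and in ATRA without untreated 1 or 3 or ATRA 2 or 3 (0.0206 to 0.0406).

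AC004263.2, LGALS3BP, COL8A2, GPR141, MIR7848 and TFCP2L1 were called higher in ATRA and not in DAC. LGALS3BP rose by 3.26 ± 0.43 in ATRA (limma adjusted p = 6.38e-06) and stood at 1.40 ± 0.43 in DAC (0.0384). AC004263.2 rose by 2.64 ± 0.42 in ATRA (5.65e-05), and COL8A2 by 1.63 ± 0.34 (0.000972). The ATRA calls of GPR141, MIR7848 and TFCP2L1 were weaker. GPR141 was lost without untreated 2 or 3 or ATRA 1 or 3 (adjusted p 0.0121 to 0.0223) and was gained in DAC without untreated 1 or DAC 1 (0.00378 and 0.00865) and with DESeq2 (0.00641). MIR7848 was lost without untreated 1 or ATRA 3 (0.0165 and 0.0273), and TFCP2L1 without any 1 untreated library or ATRA 1 or 3 (0.0134 to 0.0310) and with a pseudocount of 5 (0.0612), without the filter on low values (0.0136) and with only the compared groups (0.0124). DESeq2 called TFCP2L1 in DAC as well (0.00761).

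Only ZNF595 was called higher in DAC and not in ATRA, by 5.12 ± 0.46 on the log2 scale (limma adjusted p = 2.95e-07), against 0.74 ± 0.46 in ATRA (0.245). SIGLEC1 fell by 1.5 on the log2 scale in DAC (SE 0.33, limma adjusted p = 0.00503), a call that was lost without untreated 1 or 2 or DAC 1 or 3 (0.0109 to 0.0494) and when only DAC and untreated libraries were fitted (0.0726). The 16 members called with neither drug were CCN4, CTSL, AC004263.1, ACP5, ARHGEF11, RARA-AS1, INSYN2B, ADAMTS8, NPDC1, ATOH8, SLAMF8, MPZL2, PTPRG, LINGO4, CDO1 and MARCKS. Most had few reads outside the combination, and CTSL had the most reads of them, at -0.01 ± 0.21 in DAC and -0.22 ± 0.21 in ATRA (limma adjusted p of 0.985 and 0.464). AC004263.1 stood at 2.20 ± 0.63 in ATRA, just outside the threshold (0.0108), and was called there without ATRA 1 or any 1 DAC library (0.000576 to 0.00973), with a pseudocount of 0.5 (0.00993), with DESeq2 (0.00122) and with edgeR (0.00193 with TMM factors and 0.00179 with DESeq2 size factors). RARA-AS1 stood at 1.86 ± 0.56 in ATRA (0.0152) and was called without ATRA 1, DAC 1 or DAC 3 (0.00545 to 0.00993), with DESeq2 (0.00572) and with edgeR (0.00449 and 0.00463). CCN4 stood at 1.67 ± 0.61 (0.0411) and was called without DAC 2 (0.00951).

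**Figure D4:**
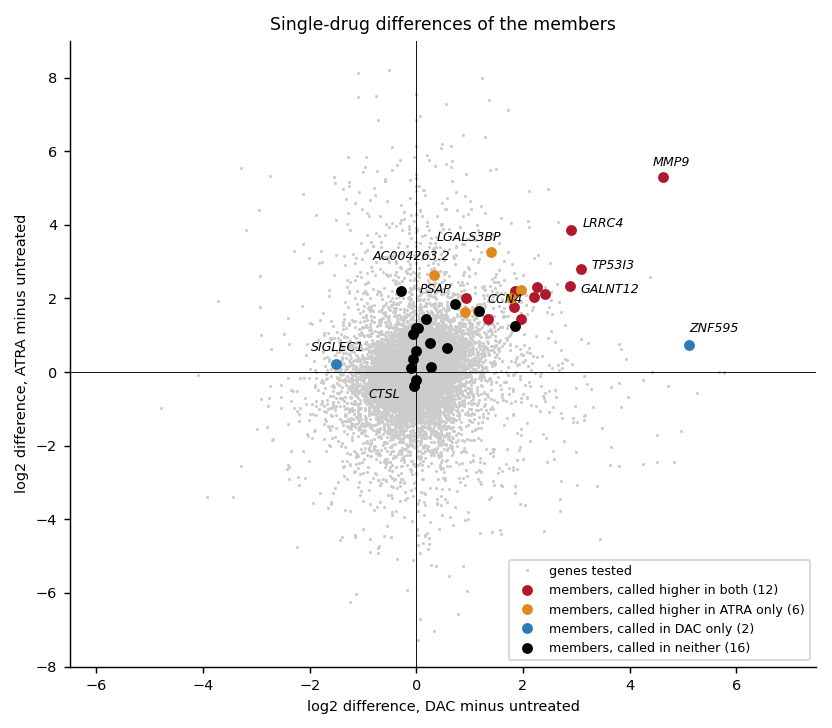
Each dot is a gene, placed by its log2 difference from untreated in DAC (x axis) and ATRA (y axis), on log2(normalized read count + 1). Gray dots are the 14290 genes tested and larger dots the 36 members, colored by their calls. Members called in both lie to the upper right, led by MMP9 at 4.63 and 5.31, and ZNF595 lies alone on the right at 5.12 and 0.74.

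The single drugs were also compared with each other. ATRA was called above DAC for 6 members (MMP9, PSAP, AC004263.2, LGALS3BP, AC004263.1 and SIGLEC1), beside 11.6% of all genes tested, and below DAC for ZNF595 alone, beside 13.5%. The difference was -4.38 ± 0.46 for ZNF595 (limma adjusted p = 2.27e-07), 1.72 ± 0.33 for SIGLEC1 (0.000405) and 2.32 ± 0.42 for AC004263.2 (0.000203). The count of 6 fell to 3 without ATRA replicate 3, where MMP9 (0.0312), LGALS3BP (0.0204) and AC004263.1 (0.0247) were lost. MMP9 was also lost without DAC 2 (0.0212) or DAC 3 (0.0118), LGALS3BP without DAC 2 (0.0146) and AC004263.1 without ATRA 2 (0.0397), with a pseudocount of 5 (0.0155), without the filter on low values (0.0102) and with only the compared groups (0.0476).

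Whether the combination went beyond the sum of the single-drug log2 differences is given as a description, since it uses the columns of the rule. The interaction, (DAC+ATRA minus ATRA) minus (DAC minus untreated), had a median of 0.81 over the members, beside 0.02 over all genes tested. The interaction was above 0 for 29 members and below 0 for 7, beside 51.8% above 0 among all genes tested. It was highest for CCN4 (5.71), INSYN2B (5.08), AC004263.1 (4.55), LINGO4 (3.997), PTPRG (3.53), ACP5 (3.51) and SIGLEC1 (3.15). It was lowest for MMP9 (-2.39) and LRRC4 (-1.22), followed by BICDL1 (-0.72), GALNT12 (-0.71), TMEM176A (-0.58), AC144831.1 (-0.58) and AC046185.3 (-0.33). TP53I3 (0.03), ASRGL1 (0.08), GPR141 (0.02) and KCNH3 (0.01) were close to the sum. On the log2 scale MMP9 was therefore less raised in DAC+ATRA than its single-drug differences add up to. On the scale of counts its group means were 14.3, 379, 604 and 2866 from untreated to DAC+ATRA. There the rule itself places each member's DAC+ATRA mean above its single-drug means added together. Values of genes at or near 0 in a group depend on the count of 1 added before the logarithm.

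Shared themes were looked for in gene lists. The share of all genes tested called in DAC+ATRA against untreated was 11.9% higher and 12.5% lower. Among 51 tested monocyte and macrophage genes, 22 were higher and 9 lower in DAC+ATRA, and 4 were members (ACP5, CTSL, MMP9 and SIGLEC1). Without the members 18 of 47 were higher. Members were chosen for a high DAC+ATRA level, so counts of higher genes are also given without them. Among 39 matricellular and matrix genes 11 were higher and 7 lower, with CCN4, COL8A2 and MMP9 as members. Leaving these out, 8 of 36 were higher. Among 68 axon guidance, synapse and ion channel genes 15 were higher and 14 lower, with INSYN2B and KCNH3 as members. Leaving these out, 13 of 66 were higher. Among 41 interferon-stimulated genes 10 were higher and 6 lower, with LGALS3BP as the only member. Leaving it out, 9 of 40 were higher.

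The following lists held no member. The rule left out PTGES, an eicosanoid gene, so nothing is concluded from the lack of an eicosanoid member. Retinoid targets had 14 of 19 higher and 2 lower, eicosanoid genes 11 of 29 higher and 2 lower, and scavenger receptor and lysosomal lipid genes 11 of 42 higher and 8 lower. The member PSAP acts in lysosomal sphingolipid breakdown but was not on the last of these lists, so the theme is not absent from the members. Cytokines, chemokines and growth factors had 12 of 46 higher and 14 lower, cancer/testis and germline genes 3 of 6 higher and 1 lower, and platelet, mast cell and erythroid genes 5 of 19 higher and 10 lower. Retinoid targets were called higher in ATRA alone for 12 of 19, and none of them met the rule, beside 36 of all 14290 genes tested. The rule asks for at least 2.5 times the ATRA mean, which limits in advance genes already high in ATRA. Nothing is concluded from this absence.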

How the data were processed

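MOLM-13 cells were sequenced in 12 strand-specific paired-end libraries, 3 per group. Per the study's methods and the submitters' processing notes, the authors used FastQC, STAR on hg38, HTSeq and DESeq2 size factors (versions not given in the sources used here). The deposited signal values were reads per transcript row divided by a size factor, in 100502 rows. All values were whole reads within 0.01 once multiplied back, so library totals and counting intervals were computed from recovered reads. Intervals and floors (95%, 3 reads over a group) cover counting error only.

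Rows were summed per symbol. limma 3.58.1 (R 4.3.3, trend) was fitted on log2(value + 1) over 14290 genes with a mean of at least 5 over 12 libraries, all groups sharing 1 spread, with Benjamini-Hochberg adjustment and a threshold of 0.01. The scripts were tested on simulated data. As alternatives, recovered reads were tested with DESeq2 1.42.0 and with edgeR 4.0.16, and other scalings, pseudocounts (0.5 and 5), filters, limits of the rule, transcript rows and the omission of each library were tried. The members and the gene lists were chosen with earlier results of these data known. Values in every library are given for the 12 members with the largest ratio to the next group (1 added to both means), the 12 with the highest DAC+ATRA mean, members on a gene list and the 3 nearest each limit from inside, and for ZNF595 and a RARA row, chosen after their values were seen. Of the rows, 88.9% matched GENCODE 44 by transcript. Promoter windows came from RefSeq (GRCh38.p14). Some items of the marker and gene lists are not reported here.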

Additional observations from a re-analysis of the deposited data

How the results depend on the processing

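With TMM factors 34 genes met the rule (AC144831.1 and COL8A2 were lost) and with total-count scaling 36. A ratio limit of 2 gave 62 genes, of 3 gave 25 and of 4 gave 13, and a mean limit of 10 gave 57 and of 50 gave 18. Unsummed transcript rows gave 42 genes, 35 of them shared, and leaving out 1 library gave 33 to 40. Members called higher in DAC numbered 13, 15 with DESeq2, 7 when only the compared groups were fitted, and 10 to 13 without 1 library. The 1 member called lower in DAC, SIGLEC1, was 0 when only the compared groups were fitted and 0 to 1 without 1 library. Members called higher in ATRA numbered 18, 20 with DESeq2 or edgeR and 14 to 20 without 1 library, and those called higher in ATRA than in DAC 6, and 3 to 6 without 1 library. In DAC and in ATRA against untreated cells no single-gene direction reversed, and 54 of 1716 single-gene values lost and 19 gained a call. In ATRA against DAC a further 10 lost and none gained a call, and the causes were not tested. With a replicate block the counts were 13 higher and 1 lower in DAC, 18 higher in ATRA, and 6 higher and 1 lower in ATRA against DAC, so the block changed no count. Same-numbered libraries of different groups had correlated deviations of -0.445 to 0.270 (median 0.0155, 18 pairs), against -0.354 to 0.422 for others, so the numbers were not taken to pair libraries. Members with under 100 reads in DAC+ATRA, down to 53, and few or none elsewhere limit what depth can show.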
